A study of Mus musculus with 37 samples.

Results

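The brain stem of wild-type mice was set against the olfactory bulb, cortex and cerebellum of the same animals. The samples were those labelled as having the normal dosage of the chromosome segment under study (+/+), which gave 12 region samples of 3 mice out of 31 region samples of 8 mice, and 3 of the 12 were brain stem. The 5 other mice carried the deletion (df/+, 2 mice) or the duplication (dp/+, 3 mice) of the mouse segment corresponding to human 16p11.2. All 8 were F1 hybrid males of C57BL/6N and 129Sv parents, and no label used here gives their age. The +/+ mice carried neither lesion and received no treatment that the labels record. Total RNA, extracted with Trizol, was hybridised to Affymetrix gene arrays, and each value is a log2 RMA summary (robust multi-array average) of the probes of 1 probe set, with 19938 genes represented by 1 probe set each. The 3 brain stem samples had 1 array each.

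The brain stem comprises the midbrain, pons and medulla. It holds the cell bodies of most serotonin and noradrenaline neurons of the brain, the motor neurons of the cranial nerves, many inhibitory neurons that release glycine, and the long myelinated tracts that join the brain to the spinal cord. During development its segments are marked out by Hox and other transcription factors that are not used to pattern the olfactory bulb or the cortex. A value from a block of tissue is a mean over its cells, so fewer cells of a type and less RNA per cell cannot be told apart.

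The difference given for a gene is the brain stem value minus the mean of the other 3 regions of the same mouse, on the log2 scale, fitted over the 12 samples with the mouse as a block (limma). A gene was called when its p-value, adjusted by Benjamini and Hochberg over all 19938 genes, was at most 0.05, and "highest in the brain stem" means higher than each of the 3 other regions, each at that threshold. By this rule 6018 genes (30.2% of those tested) differed, 3175 of them higher (15.9%) and 2843 lower (14.3%) in the brain stem. A difference of at least 1, which is a 2-fold difference, was reached by 238 of the higher genes (1.19% of all) and 110 of the lower genes (0.552%). Against the olfactory bulb alone 3688 genes were higher (18.5%) and 2820 lower (14.1%), against the cortex 2777 (13.9%) and 2668 (13.4%), and against the cerebellum 3668 and 3662 (18.4% each). In all, 895 genes were highest in the brain stem (4.49%) and 424 were lowest there (2.13%). The counts of list members given below are to be read beside these shares of all genes, and no list was tested as a set. The median difference over all genes was -0.0087, and the middle of the distribution ran from -0.43 at the 5th percentile to 0.52 at the 95th. With the arrays centred on their medians the split changed to 2570 higher and 3828 lower genes.

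The 3 brain stem samples correlated with each other at 0.992 or more over all genes, and with no sample of another region at more than 0.988. The median SD between mice was nevertheless larger in the brain stem, at 0.134, than in the olfactory bulb (0.123), the cortex (0.098) and the cerebellum (0.081). Brain stem samples 1 and 2 stood apart from sample 3 in markers of other structures. Ttr, which encodes the transthyretin of the choroid plexus, had values of 12.39, 12.98 and 8.95 in mice 1, 2 and 3. Tbr1, a transcription factor of cortical excitatory neurons, had values of 8.49, 9.08 and 6.45 in the same order. Slc6a3, the dopamine transporter of midbrain neurons, ran the other way, at 10.28, 9.42 and 11.199. The mean level of 10 choroid plexus genes was 8.04, 8.54 and 7.36, and that of 12 cortical neuron genes 9.20, 9.44 and 8.62. Without mouse 3, 3868 genes were called in place of 6018.

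The 4 largest positive differences were those of Glra1, Pmch, Slc6a5 and Tph2. Glra1, a subunit of the glycine receptor, had values of 11.88, 11.75 and 12.04 in the brain stems of mice 1, 2 and 3, against 7.13 to 8.69 in the 9 other samples. Its difference was 4.26 ± 0.17 (limma SE, n = 3 mice), a 19.1-fold excess over the geometric mean of the other regions (limma, adjusted p = 1.06e-10). Every ± value here and below is such an SE, from residuals of all regions together and moderated over genes. It is not the spread of the difference among the 3 mice, which can be wider, since the brain stem varied most between mice. The SD of Slc6a3 among the +/+ brain stems, for example, was 0.891. The glycine transporter Slc6a5, which loads the terminals of glycine neurons, had values of 11.60, 12.08 and 12.23 in the brain stem. The cerebellum came next with 10.05 to 10.53, while olfactory bulb and cortex lay between 6.51 and 6.95, so the difference of 4.04 ± 0.13 differed widely by region but the groups did not overlap. Pmch, the precursor of melanin-concentrating hormone, had values of 10.30, 10.71 and 9.92 in the brain stem, 6.55 to 8.14 in the cortex and 5.34 to 5.76 elsewhere. Its difference was 4.10 ± 0.17.

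Tph2 differed by 3.96, and the other 8 of the 12 largest positive differences were those of Dgkk (2.89), Slc6a4 (2.89), Mab21l2 (2.76), Sncg (2.64), AW551984 (2.61), Gabrq (2.58), Slc18a2 (2.57) and Slc17a6 (2.39). Sncg encodes gamma-synuclein, Dgkk a diacylglycerol kinase, Gabrq the theta subunit of the GABA-A receptor and Slc17a6 a vesicular glutamate transporter. In each of these 12 genes all 3 brain stem samples lay above all 9 other samples, as they did in 1118 genes (5.61%). The 12 were picked by size among genes higher in the brain stem than in every other region of each mouse. Their separation was therefore largely set by that choice.

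**Figure D1:**
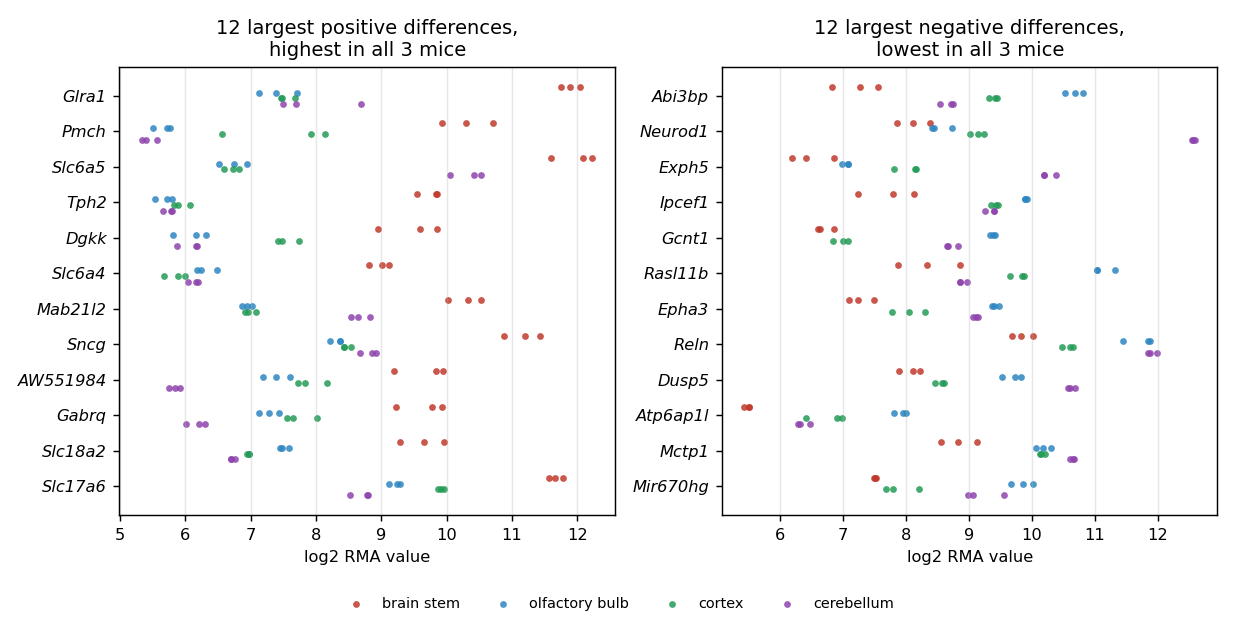
Log2 RMA values (horizontal axis) of the 12 genes with the largest positive difference and of the 12 with the largest negative difference among genes lowest in the brain stem of all 3 mice, 1 point per +/+ sample, coloured by region with the brain stem on the top line of each gene. Glra1 lies at 11.75 to 12.04 in the brain stem and Abi3bp at 6.83 to 7.56, each apart from all other samples.

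Serotonin neurons make their transmitter with tryptophan hydroxylase (Tph2) and aromatic amino acid decarboxylase (Ddc), load it with the vesicular monoamine transporter (Slc18a2) and take it back up with the serotonin transporter (Slc6a4). Of 8 measured genes of this kind 7 were higher in the brain stem, none was lower, and 5 were highest there, with a median difference of 1.41. Tph2 had values of 9.54, 9.84 and 9.84 in the brain stem, against 5.54 to 6.07 in the other samples. Slc6a4 had values of 8.81, 9.02 and 9.12 in the brain stem, against 5.68 to 6.48 in the other samples. Slc18a2 had values of 9.29, 9.65 and 9.96 in the brain stem, against 6.70 to 7.58 in the other samples. None of the 3 genes overlapped between the groups, as held in the same direction for 1118 of all genes (5.61%). All 3 are among the 12 picked from genes higher in the brain stem of each mouse, so their separation was largely set by that choice. The adjusted p was at most 2.51e-11 for each (limma). Ddc was higher by 1.96 ± 0.07, Maob, a monoamine oxidase, by 0.77 ± 0.07, and the autoreceptor gene Htr1a by 0.86 ± 0.11. Htr1a was not called highest in the brain stem, and its cortex values, 8.03 to 8.59, overlapped the brain stem values of 7.76 to 8.25.

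The 250 bases before the annotated start of Tph2, Slc6a4 and Slc18a2 are shown because the 3 genes had the largest differences of the serotonin list, and because GATA factors are known to act in serotonin neurons. They are from RefSeq (GRCm38.p6), with matches to GATAA on either strand in capitals, TTATC being the match on the opposite strand.
Tph2, minus strand of chr10:115185023-115185272: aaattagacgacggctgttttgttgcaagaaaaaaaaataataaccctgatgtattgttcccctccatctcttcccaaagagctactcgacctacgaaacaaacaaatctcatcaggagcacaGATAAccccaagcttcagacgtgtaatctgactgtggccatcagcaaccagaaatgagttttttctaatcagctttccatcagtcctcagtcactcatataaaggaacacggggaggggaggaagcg
Slc6a4, plus strand of chr11:76998347-76998596: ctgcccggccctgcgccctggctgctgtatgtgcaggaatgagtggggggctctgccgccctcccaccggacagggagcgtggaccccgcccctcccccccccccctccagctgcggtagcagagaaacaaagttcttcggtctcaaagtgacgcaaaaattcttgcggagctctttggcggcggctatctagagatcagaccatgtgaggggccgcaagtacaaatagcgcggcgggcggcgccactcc
Slc18a2, plus strand of chr19:59260628-59260877: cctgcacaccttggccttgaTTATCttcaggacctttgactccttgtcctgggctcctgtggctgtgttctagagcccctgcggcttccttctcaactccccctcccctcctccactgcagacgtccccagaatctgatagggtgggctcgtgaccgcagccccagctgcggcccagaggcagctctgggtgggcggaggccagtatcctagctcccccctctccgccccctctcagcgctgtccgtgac
The Tph2 and Slc18a2 windows hold 1 match each and the Slc6a4 window none, while 22.6% of 32851 such windows hold at least 1. A match is a run of letters and not a measured binding site. Gata3, which encodes a GATA factor, had values of 7.68, 7.75 and 8.06 in the brain stem, against 5.90 to 6.25 in the other samples, a difference of 1.80 ± 0.09 (adjusted p = 7.81e-10).

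Noradrenaline neurons of the locus coeruleus and neighbouring groups use dopamine beta-hydroxylase (Dbh) and the noradrenaline transporter (Slc6a2). Dbh had values of 7.44, 7.95 and 7.09 in the brain stem, against 5.44 to 5.95 in the other samples, with a difference of 1.81 ± 0.11. Slc6a2 was higher by 0.82 ± 0.08. Of the 5 measured genes of noradrenaline and adrenaline neurons 3 were higher and 2 did not pass the test. The third was Th, tyrosine hydroxylase, which dopamine neurons share: it had values of 10.25, 10.09 and 10.98 in the brain stem, 12.44 to 12.61 in the olfactory bulb, and 8.14 to 8.96 in cortex and cerebellum. Its difference of 0.59 ± 0.12 thus joined a lower value than one region with a higher value than the other 2, and it was 0.35 without mouse 3 and -0.19 (adjusted p = 0.215) when the cortex was left out.

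Of 10 genes of midbrain dopamine neurons 7 were higher and 1 was lower. Slc6a3 differed by 2.03 ± 0.21 and Ret, a receptor for glial-derived growth factors, by 1.54 ± 0.11. Slc6a3 was not called highest in the brain stem, and 9.42 in brain stem 2 lay below the olfactory bulb values of 9.45 to 9.77. Nr4a2, a transcription factor of dopamine neurons that other neurons also use, had values of 9.41, 9.89 and 9.85 in the brain stem, against 10.56 to 11.27 in the other samples, and was lowest in the brain stem (-1.25 ± 0.09).

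Cholinergic genes stood higher in the brain stem, where motor neurons of the cranial nerves lie. Of 10 measured genes 9 were higher, 8 of them highest in the brain stem, with a median of 1.26. Slc5a7, the choline transporter, had values of 8.35, 8.96 and 9.30 in the brain stem, 7.54 to 7.81 in the cortex and 5.75 to 6.16 in olfactory bulb and cerebellum (2.37 ± 0.15). Slc18a3, the vesicular acetylcholine transporter, differed by 1.87 ± 0.12, Slc10a4 by 2.17 ± 0.12, and acetylcholinesterase (Ache) by 1.34 ± 0.08. Prph, the peripherin of neurons that project to the periphery, had values of 8.77, 8.49 and 8.54 in the brain stem, against 6.46 to 6.89 in the other samples (1.94 ± 0.07). Chodl, a marker of fast motor neurons, differed by 1.18 ± 0.11. Of 9 nicotinic receptor subunits 5 were higher and none lower. Chrna6 had values of 8.04, 7.35 and 7.89 in the brain stem, against 5.61 to 6.14 in the other samples (1.84 ± 0.10), Chrna4 differed by 1.78 ± 0.10, Chrna3 by 1.26 ± 0.13 and Chrnb3 by 1.01 ± 0.10.

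Fast inhibition and excitation differed in which family members were high. Of 9 genes of glycine transmission 7 were higher, with a median of 0.68. Besides Glra1 and Slc6a5 these included the receptor subunits Glra3 (2.25 ± 0.11) and Glra2 (1.5 ± 0.09) and the glial transporter Slc6a9 (0.68 ± 0.09). Among 15 genes of GABA synthesis, uptake and GABA-A receptors 8 were higher and 3 lower. Gabre, the epsilon subunit, had values of 7.49, 8.57 and 8.42 in the brain stem, against 6.04 to 6.82 in the other samples (1.80 ± 0.13). Gabrd, the delta subunit of extrasynaptic receptors, was lowest in the brain stem at 8.59, 8.64 and 8.24, against 9.16 to 10.56 in the other samples (-1.26 ± 0.07). Gabra6 had a difference of -1.33 ± 0.11 that rested on the cerebellum, where granule cells express it at 12.37 to 12.55. Its brain stem values of 5.94 to 6.73 exceeded the 5.22 to 5.59 of olfactory bulb and cortex, and the difference was 1.03 without the cerebellum. Gabra5 reversed in the opposite sense, from a difference of 1.11 ± 0.10 with all regions to -0.52 without the cerebellum.

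The vesicular glutamate transporters lay on both sides. Slc17a6 (VGLUT2, of subcortical neurons) had values of 11.57, 11.66 and 11.78 in the brain stem, against 8.51 to 9.95 in the other samples (2.39 ± 0.08, adjusted p = 1.36e-11). Slc17a7 (VGLUT1, of cortical neurons and granule cells) had values of 11.15, 11.64 and 10.90 in the brain stem, against 11.98 to 12.71 in the other samples, and was lowest in the brain stem (-1.05 ± 0.11, adjusted p = 1.86e-06). Slc17a8 (VGLUT3) was higher by 0.65 ± 0.07 without being called highest. Its cortex values of 6.95 to 7.09 overlapped the 7.08 to 7.14 of the brain stem.

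Hox genes encode homeodomain factors in 4 clusters, and members at the same place in different clusters form paralogue groups numbered from the front of the body to the rear. Of 37 measured Hox genes 15 were higher in the brain stem and none was lower. These 15 were all the measured members of paralogue groups 2 to 6, with differences from 0.37 to 1.80 and a median of 0.69, and 14 of them were highest in the brain stem. None of the 20 members of groups 7 to 13 was called, with differences from -0.04 to 0.22, nor was either member of group 1, of which Hoxb1 had a difference of 0.09 ± 0.09. Group 5 led in each cluster that has one: Hoxb5 had values of 7.32, 7.52 and 7.71 in the brain stem, against 5.56 to 5.88 in the other samples (1.80 ± 0.08, adjusted p = 1.72e-10). Hoxa5 had values of 6.66, 6.50 and 6.92 in the brain stem, against 4.64 to 5.18 in the other samples (1.71 ± 0.08). Hoxc5 differed by 1.14 ± 0.08.

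The other called members were Hoxb3 (1.07), Hoxd3 (0.92), Hoxb2 (0.92), Hoxa2 (0.89), Hoxc4 (0.69), Hoxb4 (0.68), Hoxa6 (0.66), Hoxd4 (0.48), Hoxb6 (0.41), Hoxc6 (0.40), Hoxa3 (0.39) and Hoxa4 (0.37). Hoxb6 was the called member that was not highest in the brain stem. Hoxa4 and Hoxb6 rested on mouse 1, whose brain stem value was the highest of the 3 in both genes: without it their differences were 0.24 (adjusted p = 0.0852) and 0.29 (adjusted p = 0.0550). This was not particular to them: the mean of the 37 Hox genes was 6.64, 6.31 and 6.43 in brain stems 1, 2 and 3. Hoxb1, which was not called, had values of 7.48, 6.85 and 6.96. The deposited values carry no detection call, so none of the 37 genes was tested against background.

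**Figure D2:**
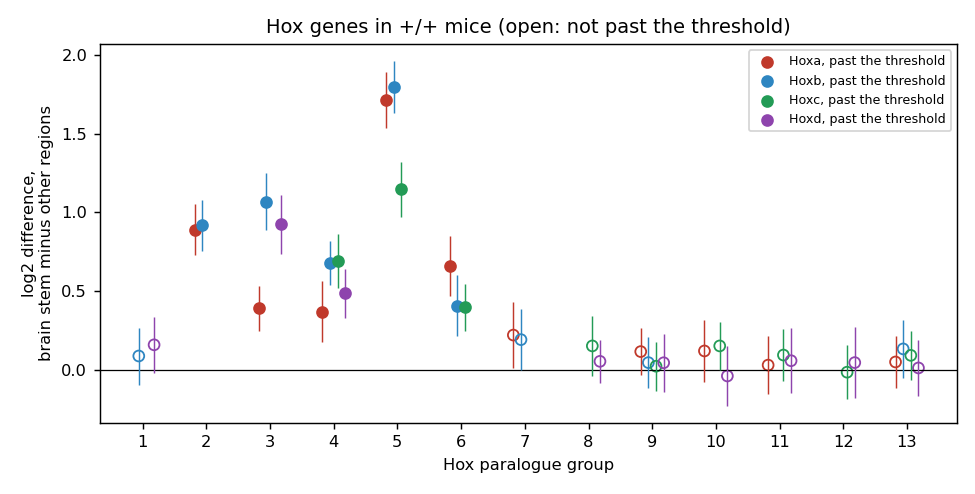
Log2 difference of brain stem minus other regions in +/+ mice (vertical axis, bars 95% confidence intervals) for 37 Hox genes by paralogue group (horizontal axis) and cluster (colour), filled where the adjusted p was at most 0.05. All 15 filled points lie in groups 2 to 6, and the highest is Hoxb5 at 1.80.

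Of 35 other measured factors that pattern hindbrain and midbrain 24 were higher, 1 was lower, and 13 were highest in the brain stem, with a median of 0.41. The mean level of the 35 genes was 7.28 to 7.46 in the brain stem, against 7.28 to 7.37 in the cerebellum, which it overlapped, 6.73 to 6.85 in the olfactory bulb and 6.54 to 6.75 in the cortex. Irx2 had values of 8.97, 8.96 and 9.25 in the brain stem, against 7.21 to 8.43 in the other samples (1.22 ± 0.08). Pax8 differed by 1.11 ± 0.09 and En1, a factor of the midbrain and its border with the hindbrain, by 0.93 ± 0.09. Isl1, which motor neurons and striatal neurons use, differed by 0.88 ± 0.09 but was not called highest. Its cortex values of 7.35 to 7.58 overlapped the 7.10 to 7.57 of the brain stem.

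Some genes used by the hypothalamus and thalamus, which textbooks place in front of the brain stem, were also highest in the samples labelled brain stem. Of 11 hypothalamic hormone and peptide genes 8 were higher, 5 of them highest, with a median of 0.66. Hcrt, the precursor of the orexins, had values of 8.60, 9.43 and 8.67 in the brain stem, against 6.83 to 7.38 in the other samples (1.89 ± 0.13). Oxt, oxytocin, had values of 9.99, 9.65 and 9.63 in the brain stem, against 7.95 to 8.37 in the other samples (1.57 ± 0.07). Avp, vasopressin, differed by 0.84 ± 0.09. None of Hcrt, Oxt and Avp overlapped between the groups, as held in the same direction for 5.61% of all genes. The 3 were named because their differences were among the largest of the list. Of 10 hypothalamic transcription factors 7 were higher and 3 highest, though 4 were without mouse 1 or without mouse 3. Sim1 differed by 0.92 ± 0.09 and Otp by 0.63 ± 0.07.

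Among 8 thalamic genes 7 were higher and 6 highest, with a median of 0.94. The list includes Slc17a6, which subcortical neurons in general use and which was counted above among the glutamate transporters. Lhx9 had values of 8.97, 9.11 and 9.35 in the brain stem, against 6.69 to 7.69 in the other samples (2.13 ± 0.08). Tcf7l2, which thalamic and midbrain neurons use, differed by 1.75 ± 0.09, Prkcd by 1.13 ± 0.08 and Gbx2 by 0.76 ± 0.08. Which structures each dissected block held is not stated in the labels, and the part of neighbouring tissue in the differences was not tested.

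Other peptides and receptors added to the pattern of transmitter systems. Rln3, the relaxin-3 of a pontine nucleus, had values of 8.24, 9.38 and 8.79 in the brain stem, against 6.47 to 6.90 in the other samples (2.13 ± 0.16). Of 24 other neuropeptide genes 12 were higher and 4 lower, and 6 were highest in the brain stem. Gal, galanin, differed by 1.64 ± 0.12 and was among these 6. Sst, somatostatin, differed by 1.78 ± 0.11, Tac1 by 1.72 ± 0.11 and Grp by 1.14 ± 0.08, and in all 3 the cortex mean was above that of the brain stem. Of 14 serotonin receptors 6 were higher and 2 lower, though 1 was lower without mouse 1. Of all genes 15.9% were higher and 14.3% lower, so the lower counts of peptides and receptors were near the share of all genes. Htr2c had values of 11.11, 10.95 and 10.94 in the brain stem, against 7.95 to 10.27 in the other samples (1.78 ± 0.12), and Htr4 differed by 1.28 ± 0.09.

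All 28 measured genes of myelin and oligodendrocytes, the cells that make it, were highest in the brain stem, 19 of them by at least 1, with differences from 0.63 to 1.79 and a median of 1.08. The mean level of the 28 genes was 10.52 to 10.70 in the brain stem, against 9.75 to 9.81 in the cortex, 9.65 to 9.71 in the cerebellum and 9.10 to 9.27 in the olfactory bulb. Mag, an adhesion protein of the inner myelin layer, had values of 11.70, 11.98 and 12.16 in the brain stem, against 9.42 to 10.96 in the other samples (1.44 ± 0.10). Klk6, a secreted protease of oligodendrocytes, had values of 10.62, 10.82 and 11.12 in the brain stem, against 8.39 to 10.12 in the other samples (1.79 ± 0.10). Opalin (1.54), Ermn (1.42), Anln (1.34) and Mog (1.33) followed. Of 7 genes of oligodendrocyte precursors 5 were higher and 1 lower, and 1 was highest, with a median of 0.40.

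Genes of large axons behaved alike. All 5 neurofilament and related filament genes were highest in the brain stem. Nefm had values of 10.49, 10.88 and 10.78 in the brain stem, against 8.38 to 9.96 in the other samples (1.45 ± 0.07). Nefh differed by 1.30 ± 0.09, Nefl by 1.12 ± 0.06 and Ina by 0.47 ± 0.07. Of 19 genes of fast-spiking neurons and the node of Ranvier 16 were higher and none lower, but 3 were highest in the brain stem. Vamp1, a vesicle protein, was higher by 1.49 ± 0.09 and highest there. Pvalb, a calcium buffer, had values of 11.63, 11.51 and 11.23 in the brain stem, below the 12.61 to 12.74 of the cerebellum, and its difference of 1.21 ± 0.09 became 0.02 (adjusted p = 0.878) without the olfactory bulb. Syt2 differed by 1.52 ± 0.10, Scn4b by 1.54 ± 0.11 and Hcn2 by 0.84 ± 0.13.

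Astrocyte genes were mostly higher, by less. Of 16 genes 13 were higher, 1 was lower and 6 were highest, with a median of 0.30, and 8 were higher without mouse 3. Agt, angiotensinogen, had values of 11.85, 11.66 and 12.08 in the brain stem, against 9.72 to 11.03 in the other samples (1.54 ± 0.09). Itih3 differed by 1.51 ± 0.07, Slc6a11, a GABA transporter, by 0.99 ± 0.09 and Gfap by 0.75 ± 0.09. All 7 genes of ependyma, the ciliated lining of the ventricles, were higher, with Tmem212 at 0.73 ± 0.10 and Foxj1 at 0.60 ± 0.08. Of 11 microglial genes 3 were higher, and 1 was without mouse 2 or without mouse 3.

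**Figure D3:**
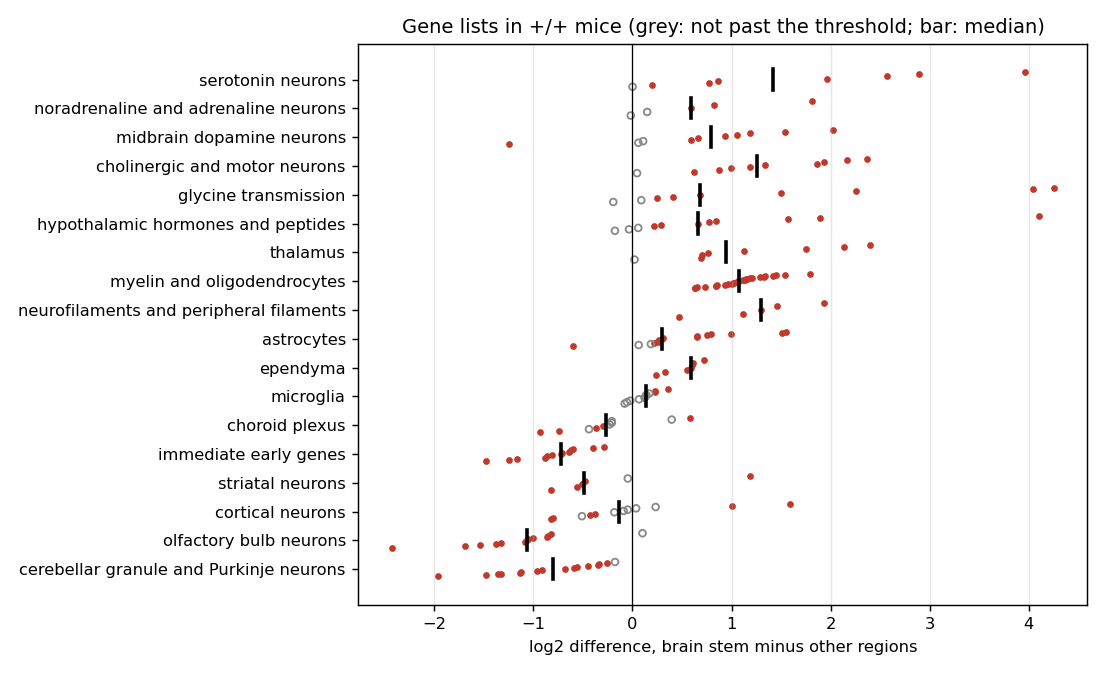
Log2 difference of brain stem minus other regions in +/+ mice (horizontal axis) for each measured gene of 18 lists, 1 point per gene, red where the adjusted p was at most 0.05 and grey otherwise, with a black bar at the list's median. Myelin genes all lie above 0, immediate early genes all below it, and the serotonin list has the highest median of those drawn, 1.41.

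The lower side held fewer large differences. The 12 largest among genes lower in the brain stem than in every other region of all 3 mice were those of Abi3bp (-2.36), Neurod1 (-1.96), Exph5 (-1.96), Ipcef1 (-1.84), Gcnt1 (-1.66), Rasl11b (-1.58), Epha3 (-1.57), Reln (-1.56), Dusp5 (-1.55), Atp6ap1l (-1.53), Mctp1 (-1.49) and Mir670hg (-1.47). Abi3bp, an extracellular matrix protein, had values of 6.83, 7.56 and 7.26 in the brain stem, against 8.54 to 10.81 in the other samples (adjusted p = 7.93e-11). Reln, the secreted protein that guides layer formation in cortex and cerebellum, had values of 9.68, 9.83 and 10.02 in the brain stem, against 10.47 to 11.99 in the other samples. Ipcef1 had values of 7.79, 8.13 and 7.23 in the brain stem, against 9.25 to 9.93 in the other samples. In 544 genes (2.73%) the 3 brain stem samples all lay below the 9 others, and Abi3bp, Reln and Ipcef1 were among them. Neurod1 had values of 7.86, 8.38 and 8.12 in the brain stem, 8.42 to 9.23 in olfactory bulb and cortex, and 12.55 to 12.59 in the cerebellum.

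Immediate early genes, which neurons switch on within minutes of activity, were all lower. Each of the 13 measured was called lower, with differences from -1.48 to -0.29 and a median of -0.72. The mean level of the 13 genes was 8.17 to 8.75 in the brain stem, against 9.82 to 10.01 in the olfactory bulb, 9.53 to 9.59 in the cortex and 8.17 to 8.45 in the cerebellum, so it lay below olfactory bulb and cortex and overlapped the cerebellum. Only 2 of the 13 were lowest in the brain stem. Npas4 had values of 7.48, 8.22 and 7.52 in the brain stem, 9.45 to 10.42 in olfactory bulb and cortex, and 7.64 to 8.57 in the cerebellum (-1.48 ± 0.16). Nr4a1 differed by -1.25 ± 0.18, Egr2 by -1.17 ± 0.19 and Fosb by -0.88 ± 0.08, and Egr2 by -0.75 without mouse 3. The time from death to freezing and the state of the animals are not in the labels, so their part was not tested.

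Markers of the other regions were lower on average, as the choice of regions implies. Of 13 olfactory bulb neuron genes 12 were lower and of 16 cerebellar granule and Purkinje genes 15 were lower, with medians of -1.07 and -0.80. Eomes, of mitral and tufted cells, had values of 6.81, 6.24 and 6.41 in the brain stem, 10.63 to 11.09 in the olfactory bulb and 9.10 to 9.95 in the cerebellum (-2.43 ± 0.15). The cerebellar genes Ppp1r17 (-1.47 ± 0.09) and Cbln3 (-1.36 ± 0.08) were lower through the cerebellum alone, since their brain stem means were near or above those of olfactory bulb and cortex. Cdhr1 differed by -1.69 ± 0.11 and by -0.15 (adjusted p = 0.343) without the olfactory bulb. Of 12 cortical neuron genes 4 were lower and 2 higher, though 4 were higher without mouse 3. The count of 2 higher was near the share of all genes, 15.9%. Mef2c had values of 10.62, 10.86 and 9.74 in the brain stem and differed by -0.81 ± 0.16, or by -0.44 without mouse 3, and Neurod2 differed by -0.82 ± 0.10. Lamp5 was higher by 1.59 ± 0.14, with brain stem values of 10.77 to 11.23 among the 10.96 to 11.15 of the cortex. Of 10 choroid plexus genes 4 were lower and 1 higher, but 8 were lower without mouse 2 and 2 without mouse 3. Kcnj13 differed by -0.74 ± 0.15, or by -0.44 without mouse 3.

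Arrays of this type also carry probe sets for microRNA genes, which read the primary or precursor transcript and not the mature microRNA. Among 296 such genes 6 were higher (2.03%) and 51 lower in the brain stem (17.2%), against 15.9% and 14.3% of all genes. These genes were looked at after their values were seen. Mature sequences of 10 of the genes described are given from RefSeq (GRCm38.p6) in 5′ to 3′ direction, with the seed, bases 2 to 8, in capitals.
mmu-miR-219a-5p: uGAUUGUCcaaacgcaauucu
mmu-miR-218-5p: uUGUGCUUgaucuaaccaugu
mmu-miR-99a-5p: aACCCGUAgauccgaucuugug
mmu-miR-100-5p: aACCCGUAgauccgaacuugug
mmu-miR-135a-5p: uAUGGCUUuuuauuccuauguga
mmu-miR-15a-5p: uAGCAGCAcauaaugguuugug
mmu-miR-16-5p: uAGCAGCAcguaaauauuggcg
mmu-miR-128-3p: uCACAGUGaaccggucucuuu
mmu-let-7d-5p: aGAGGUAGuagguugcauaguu
Mir219a-2, whose product is known from oligodendrocyte maturation, had values of 7.87, 8.16 and 8.36 in the brain stem, against 6.99 to 7.55 in the other samples (0.80 ± 0.09, adjusted p = 8.14e-06). Mir218-1, whose product is known from motor neurons, had values of 7.10, 7.43 and 7.73 in the brain stem, overlapping the 7.27 to 7.52 of the cortex (0.73 ± 0.12). Mir99a and Mir100, whose products share the seed ACCCGUA, differed by 0.46 ± 0.09 and 0.39 ± 0.12, Mir135a-2 by 0.46 ± 0.08 and Mir382 by 0.31 ± 0.10. The calls of Mir100 and Mir382 were lost without mouse 2 or without mouse 3.

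On the lower side Mir15a had values of 7.54, 8.22 and 7.72 in the brain stem, against 8.59 to 10.17 in the other samples (-1.44 ± 0.08, adjusted p = 2.23e-09). Mir16-1, whose product has the same seed, differed by -0.37 ± 0.09, and its call was lost without mouse 3 (adjusted p = 0.0997). Mir128-1 and Mir128-2, which give the same mature sequence, differed by -1.16 ± 0.13 and -0.50 ± 0.08. Mir181b-1 (-1.36 ± 0.17) and Mirlet7d (-0.68 ± 0.08) were also lower, as were Mir9-3 (-0.49 ± 0.08) and Mir9-1 (-0.42 ± 0.12, or -0.25 without mouse 1). In the df/+ and dp/+ mice all 6 higher and 48 of the 51 lower genes were called in the same direction. Of all 296 microRNA genes 9 were called higher and 119 lower in those mice, against 25.1% and 23.9% of all genes.

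The same contrast in df/+ and dp/+ mice, which share no sample with the +/+ mice, gave 9765 called genes (49.0%), 4998 higher (25.1%) and 4767 lower (23.9%), over 19 samples in which the cortex of dp/+ mouse 3 was missing. Of the 3175 genes higher in the +/+ brain stem 2978 were called higher there and of the 2843 lower genes 2540 were called lower, while none was called in the opposite direction. All 238 genes higher and all 110 lower by at least 1 were called in the same direction. Of the 895 genes highest in the +/+ brain stem 884 were called higher in df/+ and dp/+ mice, and of the 424 lowest 419 were called lower. These calls are against the mean of the other regions, and whether the genes were also highest or lowest there was not tested. Glra1 differed by 4.24 in df/+ and dp/+ mice and by 4.26 in +/+ mice, Tph2 by 4.08 and 3.96, Slc6a5 by 4.10 and 4.04. The 15 called Hox genes were called higher in these mice too, with Hoxb5 at 1.61, and 1 other Hox gene was called lower. Pmch was the exception among the leading genes, at 2.90 in df/+ and dp/+ mice and 4.10 in +/+ mice. Its brain stem values were 9.79 and 5.73 in df/+ mice, 9.53, 9.25 and 10.33 in dp/+ mice and 10.30, 10.71 and 9.92 in +/+ mice, so 1 df/+ brain stem was low, and the same sample was lowest in Hcrt, at 6.97.

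**Figure D4:**
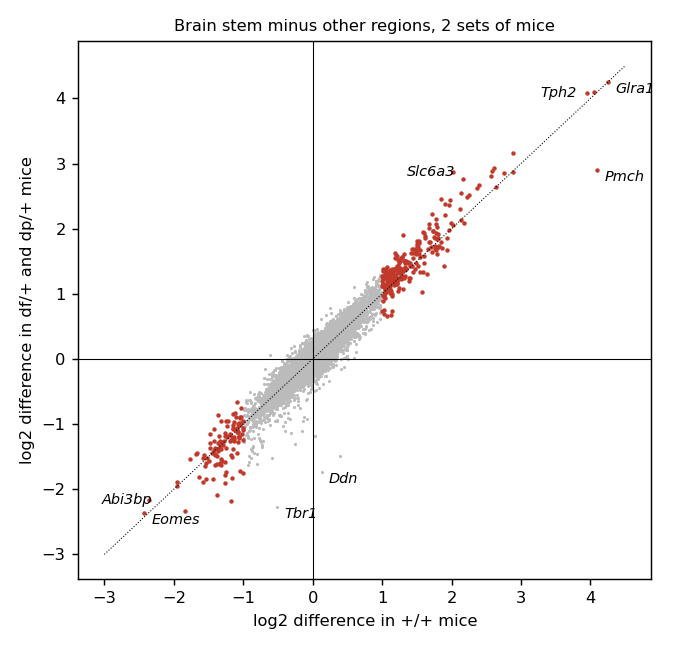
Log2 difference of brain stem minus other regions in df/+ and dp/+ mice (vertical axis) against the same difference in +/+ mice (horizontal axis), 1 point per gene, red where the gene was called in +/+ mice with a difference of at least 1 in size, with the line of equality dotted. The red points lie in the 2 quadrants of equal sign, and Pmch and Slc6a3 lie off the line. Tbr1 and Ddn lie lower in df/+ and dp/+ mice than in +/+ mice, where their differences are -0.51 and 0.13.

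Whether the brain stem contrast differed by genotype was tested over all 31 samples. For df/+ minus +/+ mice 8 genes passed the threshold (0.0401%), all with a lower contrast in df/+ mice, and 721 (3.62%) had an unadjusted p under 0.05. For dp/+ minus +/+ mice limma called 0 genes, with 1153 (5.78%) at an unadjusted p under 0.05. The 2 with the smallest p were Fads2b and Kcnv1. Both tests use the same +/+ mice. The 8 genes were Mlip, Tbr1, Gda, Crym, Kcnmb4, Ddn, Rgs14 and Dbpht2, and 7 of them have their highest regional mean of +/+ mice in the cortex. Mlip had values of 7.57 and 7.46 in df/+ brain stems, 8.01, 7.68 and 8.15 in dp/+ brain stems and 8.97, 9.41 and 8.22 in +/+ brain stems. Tbr1 had values of 5.79 and 5.83 in df/+ brain stems, 7.13, 6.20 and 6.15 in dp/+ brain stems and 8.49, 9.08 and 6.45 in +/+ brain stems. In all 8 genes the lowest of the 3 +/+ brain stems was that of mouse 3, the sample that also lacked high Ttr. Without +/+ mouse 1 no gene passed for df/+ minus +/+ mice, without +/+ mouse 2 it was 1 and without +/+ mouse 3 it was 42, and 0 genes passed without the cortex samples. The mean of the 12 cortical neuron genes was 8.45 and 8.47 in df/+ brain stems, 8.47 to 8.81 in dp/+ brain stems and 8.62 to 9.44 in +/+ brain stems, and the part of forebrain tissue in these 8 calls was not tested.

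**Figure D5:**
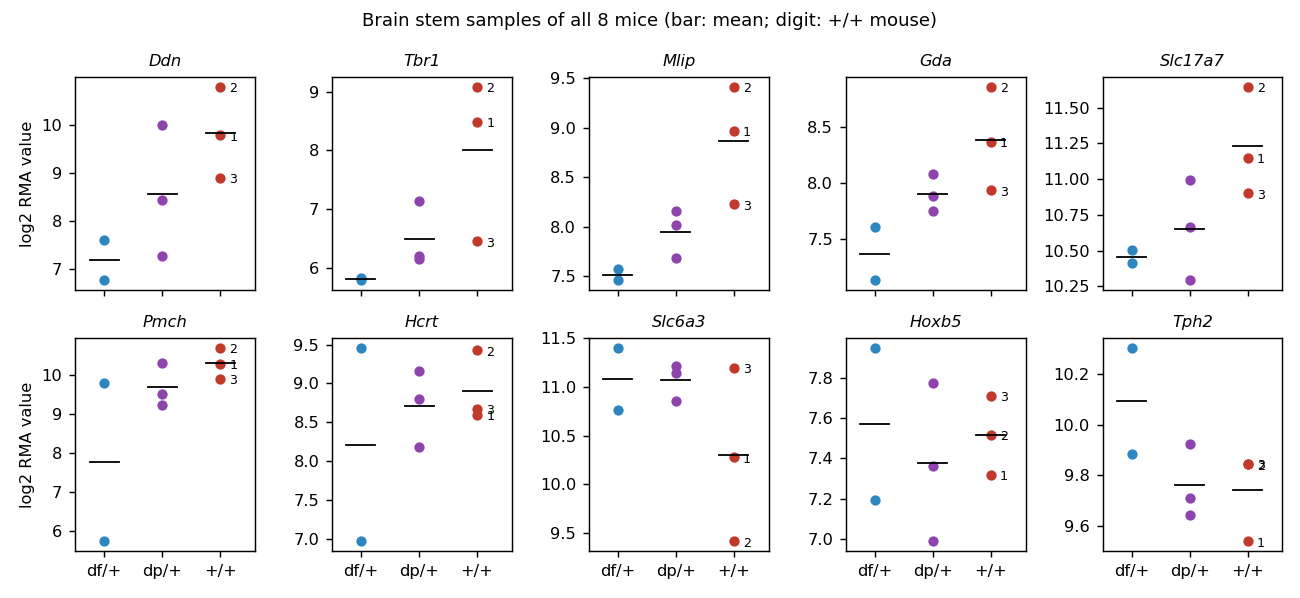
Log2 RMA values (vertical axes, each with its own range) of 10 genes in the brain stem samples of 2 df/+, 3 dp/+ and 3 +/+ mice, 1 point per mouse with a bar at the mean and the +/+ mice numbered. Tbr1, Mlip, Gda and Slc17a7 are highest in +/+ mice 1 and 2, Slc6a3 is lowest in the same 2 samples, and Hoxb5 overlaps between genotypes. Tph2 is 9.88 and 10.30 in df/+ mice, 9.64 to 9.92 in dp/+ mice and 9.54 to 9.84 in +/+ mice. It was not among the 8 genes whose contrast differed by genotype.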

How the data were processed

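The authors deposited log2 RMA values, made with Affymetrix Expression Console per the submitters' processing notes; library files and versions are not given in the sources used here. The base of the logarithm was read from the values. Probe sets with 1 symbol in the platform annotation (21789 of 35556; 1621 had several and 12146 none) were kept, 21698 of them updated through the RefSeq table, and each of 19938 genes was represented by its probe set of highest mean in +/+ samples. By the labels, 3 of the 12 +/+ samples had 2 arrays, which were averaged, and +/+ mouse 3 has a technical repeat as its single olfactory bulb array. limma 3.58.1 in R 4.3.3 fitted region means with the mouse as a fixed block, since the labels give each sample's mouse, and the fit was tested on simulated data. Over 18 pairs of samples of the same mouse, deviations from region means correlated at a median of 0.136, from -0.054 to 0.473. The number of mice limits the precision. The median SD was 0.057 between 2 arrays of 1 +/+ sample and 0.081 to 0.134 between +/+ mice, by region. The labels give no scan date, so batches could not be tested. Named genes were the 12 largest differences in each direction among genes highest, or lowest, in the brain stem of all 3 mice, list members past the threshold with the largest differences, Hox genes, and genotype differences with the smallest p. Ttr, Ddn, Rgs14, Dbpht2 and the microRNA genes were added after their values were seen. The members and all 37 gene lists were chosen with earlier results of these data known. Other normalisations, priors, weights, blocks, feature sets, thresholds and left-out regions or mice were tried as alternatives.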

Additional observations from a re-analysis of the deposited data

Results flagged for a closer look

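In 8 genes the brain stem contrast differed between df/+ and +/+ mice (limma interaction, adjusted p at most 0.05). The difference, df/+ minus +/+, was -1.38 for Mlip, -2.31 for Tbr1, -1.13 for Gda, -1.15 for Crym, -0.86 for Kcnmb4, -2.72 for Ddn, -0.74 for Rgs14 and -0.95 for Dbpht2. The adjusted p ran from 0.0025 for Mlip to 0.0448 for Dbpht2, and the count of such genes changed with the mice left out, as given with the processing alternatives.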

How the results depend on the processing

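Over the alternatives that kept all mice, regions and the threshold, the number of called genes ran from 5096 to 6662. It was 5240 without the replicate block (no replicate block) and 5891 with the mouse as a random replicate block, and no named gene but Mir382 (adjusted p = 0.062) lost its call in either. Requiring a difference of at least 1 left 348 genes, 238 higher and 110 lower, 198 highest and 47 lowest. Genes highest in the brain stem numbered 1436 without the olfactory bulb and 1696 without the cortex. Genes lowest there numbered 1097 without the olfactory bulb, 941 without the cortex and 929 without the cerebellum. With a region left out the rule asks for fewer comparisons, which by itself tends to raise these counts. With arrays centred on their medians 640 genes were lowest. Leaving out 1 mouse gave 3868 to 5650 called genes, 2030 to 3154 higher, 1838 to 2496 lower, 497 to 928 highest and 202 to 312 lowest; these fits have fewer samples. For df/+ minus +/+ mice 2 genes passed without the block, 1 with cyclic loess, 0 without the cortex, and 0 to 42 with 1 mouse left out (leaving out df/+ mouse 1 gave 29, df/+ mouse 2 gave 0, and dp/+ mouse 1 or 3 gave 2); for dp/+ minus +/+ mice it was 14 without +/+ mouse 3 and 0 without any other. Signs turned, the cause being the region or mouse left out, as follows. Without the olfactory bulb Ttr was -1.67, Mlip 0.33 and Gda 0.33. Without the cortex Th was -0.19, Tbr1 0.58, Mlip 0.56, Gda 0.61, Crym 0.87, Rgs14 0.39 and Kcnv1 0.41. Without the cerebellum Gabra6 was 1.03, Gabra5 -0.52, Ppp1r17 0.33, Cbln3 0.64, Ddn -1.81 and Dbpht2 -0.83. With 1 mouse left out Hoxb1 ran from -0.08 to 0.18, Ttr from -0.36 to 1.59 (-0.04 without mouse 1), Ddn from -0.32 to 0.60, Tbr1 from -1.02 to 0.25, Mlip from -0.40 to 0.14 and Rgs14 from -0.17 to 0.04, and with array weights Ttr was -0.32 and Ddn -0.11, the cause of which was not tested.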

Other observations

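Markers of other tissues that a dissected block could hold were also counted in the +/+ brain stem. For comparison, 15.9% of all genes were higher there and 14.3% lower. Of 8 skeletal muscle genes none passed the test (limma), and of 6 genes of peripheral sensory neurons 1 was higher, P2rx3 at 0.27. The other, dimmer probe set of P2rx3 differed by 0.02 (limma over all probe sets, adjusted p = 0.887). Of 6 pituitary hormone genes 1 was higher, Cga, the common alpha subunit, at 0.98 ± 0.09. Of 13 endothelial and mural genes 4 were higher, and 1 was without mouse 2 or without mouse 3. Of 11 genes of meningeal fibroblasts 5 were lower, 3 without mouse 2, with Slc13a4 at -0.70 ± 0.09. Among choroid plexus genes Aqp1 differed by -0.93 ± 0.11. Of 30 measured genes of the segment altered in df/+ and dp/+ mice 3 were higher and 3 lower in the +/+ brain stem, with a median of 0.01.

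The mean level of 16 cerebellar granule and Purkinje genes was 8.21 and 8.06 in df/+ brain stems, 9.0, 8.02 and 8.18 in dp/+ brain stems and 8.0, 8.17 and 8.25 in +/+ brain stems, so the brain stem of dp/+ mouse 1 stood above the other 7. Leaving out that mouse left 4577 higher and 3819 lower genes in the contrast of df/+ and dp/+ mice.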
